A study of Bos taurus with 30 samples.

Results

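SLC2A5, VNN1, GATM, NPL, MAP3K7CL and FBXO32 are 6 genes of the bovine corpus luteum that were picked by symbol for a rise on day 11 of the estrous cycle that came mainly by 24 h after prostaglandin F2α (PGF2α). They are 6 of the 9155 genes that the platform annotation names with 1 symbol, and all 10 of their probe sets, of 24016 tested, are described. The samples came from 30 Angus crossbred heifers, 5 in each of 6 groups. On day 11 and on day 4 the gland was taken 0 h after saline (the controls) or 4 or 24 h after PGF2α. Each heifer's luteal RNA was run on 1 bovine expression array (Affymetrix GeneChip), and values are log2 signals. Precision was limited by the 5 arrays per group.

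The corpus luteum secretes progesterone and, when no pregnancy follows, is dismantled in response to PGF2α. A mature gland regresses after an injection of it, whereas an early gland, such as that of day 4, is known for its resistance to that signal. During regression steroid synthesis stops, immune cells enter and tissue is broken down and cleared. SLC2A5 encodes GLUT5, a fructose transporter of the cell surface. VNN1 encodes vanin 1, a membrane-anchored enzyme that splits pantetheine into pantothenate (vitamin B5) and cysteamine. GATM encodes the mitochondrial enzyme of the first step of creatine synthesis, which joins arginine and glycine. NPL encodes a lyase that breaks sialic acid into an amino sugar and pyruvate. FBXO32, also called atrogin-1, is the substrate-binding subunit of a ubiquitin ligase that marks proteins for the proteasome and is known from wasting muscle. MAP3K7CL is named for its likeness to the end of the kinase TAK1 (MAP3K7), and its function is poorly known.

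The values that chose the 6 genes were those of the day 11 groups, so day 11 changes and contrasts of day 11 with day 4 are given as descriptions, with no test. The day 4 arrays took no part in that choice as it was worded, and the day 4 changes were tested. All arrays were fitted together in limma with a mean per group, and a probe set was called at a p value under 0.05 after Benjamini-Hochberg adjustment over all 24016 probe sets. Where a gene had several probe sets, the one with the highest mean over the 30 arrays represents it. For SLC2A5 this choice rested on the day 11, 24 h group (8.69 against 6.26 for the second probe set). In both control groups the second was the brighter, at 3.98 against 3.62 on day 11 and 3.96 against 3.52 on day 4. A probe set with a mean signal below 4.50 belonged to the dimmest 30% on the array, and fold changes that start there are uncertain in size. The gland's defining genes were bright: the mean of 8 luteal steroidogenic markers, among them STAR and CYP11A1, was 12.42 to 12.61 in the day 11 controls and 11.80 to 12.12 in the day 4 controls. Of the 30 arrays, 29 lay nearest to their own group over all probe sets. Day 4, 24 h replicate 1 lay nearer to the day 4 controls (root mean square distance 0.25) than to its own group (0.34). Some of the results that use that array are also given without it. Nothing in the labels says how the arrays were batched.

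In the day 11 gland all 6 genes were higher at 24 h than at 0 h without overlap between the groups, by 2.19 to 5.07 log2 units, where 10% of all probe sets (2403 of 24016) were. In whole tissue, more cells of a type and more RNA per cell cannot be told apart. Their 24 h arrays also lay above the 25 other arrays of the study for 6 of 6 genes. Over all genes, 383 of 9155 (4.18%) had that separation, and nothing is read from the count of the 6, which the choice of genes fixes. The size of the gap between the lowest day 11, 24 h array and the highest of the others ran from 0.10 for MAP3K7CL to 2.30 for SLC2A5. These gaps are those of the representative probe sets. The second SLC2A5 probe set had a gap of 0.94, and the third overlapped (-0.30).

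**Figure D1:**
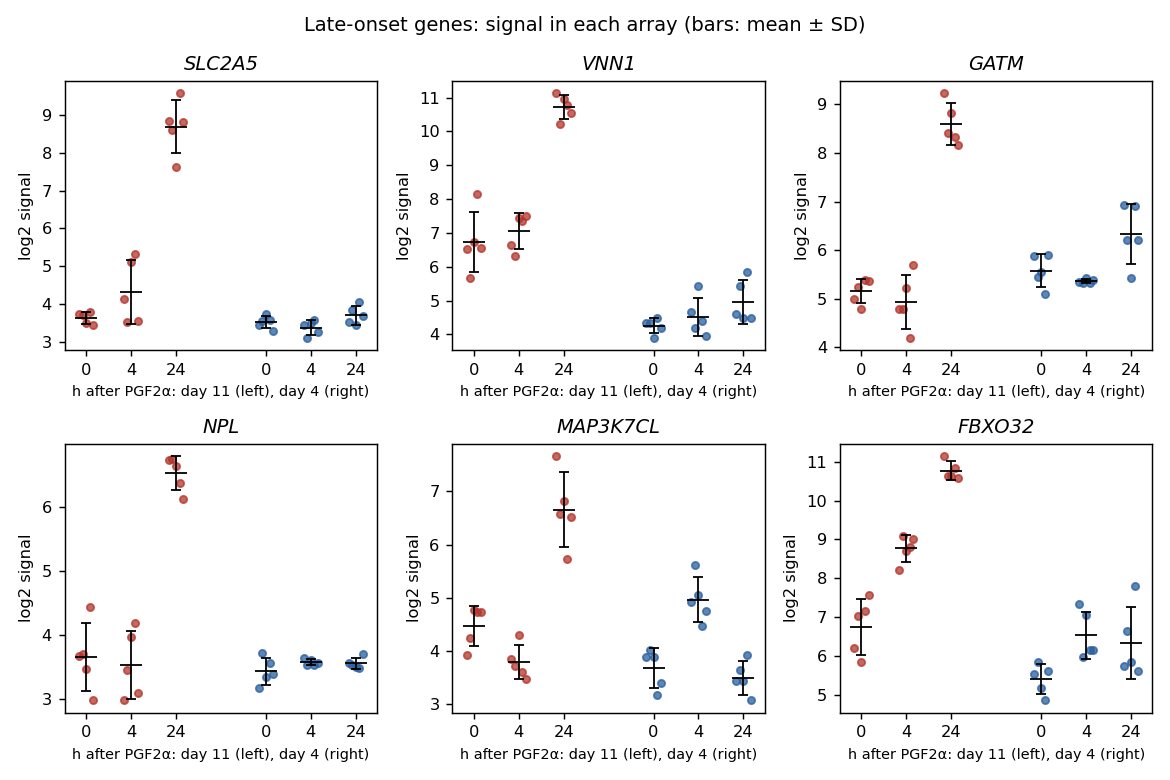
Log2 signal of the representative probe set of each of the 6 genes in each array, with day 11 on the left (red) and day 4 on the right (blue) of each panel and hours after PGF2α along the axis; points are animals and bars the mean ± SD of 5. In every panel the 5 day 11, 24 h points lie above all others, by as little as 0.10 log2 units for MAP3K7CL, and MAP3K7CL has a second, smaller peak in the day 4, 4 h group.

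SLC2A5 (Entrez Gene 282868), the fructose transporter, had signals of 3.72, 3.70, 3.49, 3.77 and 3.45 in the day 11 controls. At 4 h they were 4.13, 3.51, 5.11, 5.32 and 3.54, and at 24 h 8.84, 8.60, 7.62, 9.58 and 8.82. At 4 h 3 animals lay above all controls and 2 lay within their range, and at 24 h the groups were far apart. The 24 h mean was 8.69 ± 0.70 (SD, n = 5) against 3.62 ± 0.15 (SD, n = 5) at 0 h, a difference of 5.07 ± 0.28 (SE). That is 33.6-fold on the linear scale, but the signal was among the dimmest 30% at 0 h. The spread at 4 h (SD 0.85) was the widest of the 6 SLC2A5 groups.

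VNN1 (526704), the pantetheinase, was 6.53, 5.66, 6.74, 8.16 and 6.55 in the day 11 controls. Its signals were 6.64, 6.33, 7.44, 7.36 and 7.51 at 4 h and 11.13, 10.23, 10.97, 10.79 and 10.55 at 24 h. The 4 h group lay wholly inside the control range, and the lowest 24 h array was 2.07 above the highest control. The 24 h mean was 10.73 ± 0.36 against a control mean of 6.73 ± 0.90 (SD, n = 5 each), a difference of 4.01 ± 0.34 (SE) or 16.1-fold.

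GATM (414732), which begins creatine synthesis, was 5.00, 5.24, 4.80, 5.38 and 5.36 at 0 h on day 11. At 4 h it was 4.80, 4.80, 5.22, 4.20 and 5.70, and at 24 h 9.23, 8.41, 8.83, 8.33 and 8.17. The 0 and 4 h groups overlapped, and at 24 h every animal was at least 2.79 above the highest control. The 24 h mean of 8.60 ± 0.43 exceeded the control mean of 5.16 ± 0.25 (SD, n = 5 each) by 3.44 ± 0.25 (SE), or 10.8-fold.

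NPL (507597), the sialic acid lyase, was 3.66, 3.69, 3.47, 4.44 and 2.97 in the day 11 controls. It was 2.97, 3.44, 3.96, 4.19 and 3.08 at 4 h and 6.73, 6.76, 6.65, 6.38 and 6.12 at 24 h. Again the 0 and 4 h groups overlapped fully while the 24 h group stood clear, at 6.53 ± 0.27 against 3.65 ± 0.53 (SD, n = 5 each). The difference was 2.88 ± 0.20 (SE), and the signal was in the dim range at 0 and 4 h.

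MAP3K7CL (540879), the TAK1-like gene, was 3.91, 4.23, 4.76, 4.72 and 4.72 at 0 h on day 11. Its signals were 3.84, 3.71, 4.29, 3.60 and 3.47 at 4 h and 7.67, 6.57, 6.83, 5.72 and 6.52 at 24 h. At 4 h 4 of 5 animals were below all controls, and at 24 h all 5 were above them. The 4 h mean of 3.78 ± 0.32 and the control mean of 4.47 ± 0.38 (SD, n = 5 each) differed by -0.69 ± 0.26 (SE). Both means were in the dim range. By 24 h the mean was 6.66 ± 0.70 (SD, n = 5), 2.19 ± 0.26 (SE) above the controls.

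FBXO32 (513776), the ubiquitin ligase subunit, was 6.20, 7.03, 5.83, 7.15 and 7.57 in the day 11 controls. It was 8.21, 9.10, 8.71, 8.81 and 9.02 at 4 h and 11.15, 10.63, 10.63, 10.84 and 10.59 at 24 h. All 3 groups were separate, and FBXO32 was the 1 of 6 genes that lay above its controls at 4 h without overlap, where 4.98% of all probe sets did. The 4 h mean was 2.02 ± 0.35 (SE) above that of the controls, and the 24 h mean 4.01 ± 0.35 (SE) above it, or 16.2-fold.

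The word late described the 6 genes unequally. The change at 4 h was 13.8% of that at 24 h for SLC2A5 and 8.23% for VNN1 on the log2 scale. For GATM, NPL and MAP3K7CL the 4 h change was of opposite sign, at -6.17%, -4.03% and -31.3% of the 24 h rise. The negative values of GATM and NPL were smaller than their SE (4 h minus 0 h of -0.21 ± 0.25 and -0.12 ± 0.20), and for NPL the sign turned when control replicate 4 (0.08) or 4 h replicate 1 (0.02) was left out. FBXO32 had 50.3% of its log2 rise at 4 h, so that on this scale its label as late goes against its own values. On the linear scale it was 4.05-fold its controls at 4 h and 16.2-fold at 24 h, so most of that rise came after 4 h. For comparison, 121 other genes rose by at least 2 log2 units by 24 h on day 11, and the median share present at 4 h among them was 49.1% (quartiles 25.3% and 75.2%). Of these, 30 had a share under 25%. Ranked by the step between 4 and 24 h over 9155 genes, SLC2A5 was number 1, VNN1 2, GATM 4, NPL 6, MAP3K7CL 7 and FBXO32 33. The genes were chosen for such a step, so nothing is read from these ranks.

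**Figure D2:**
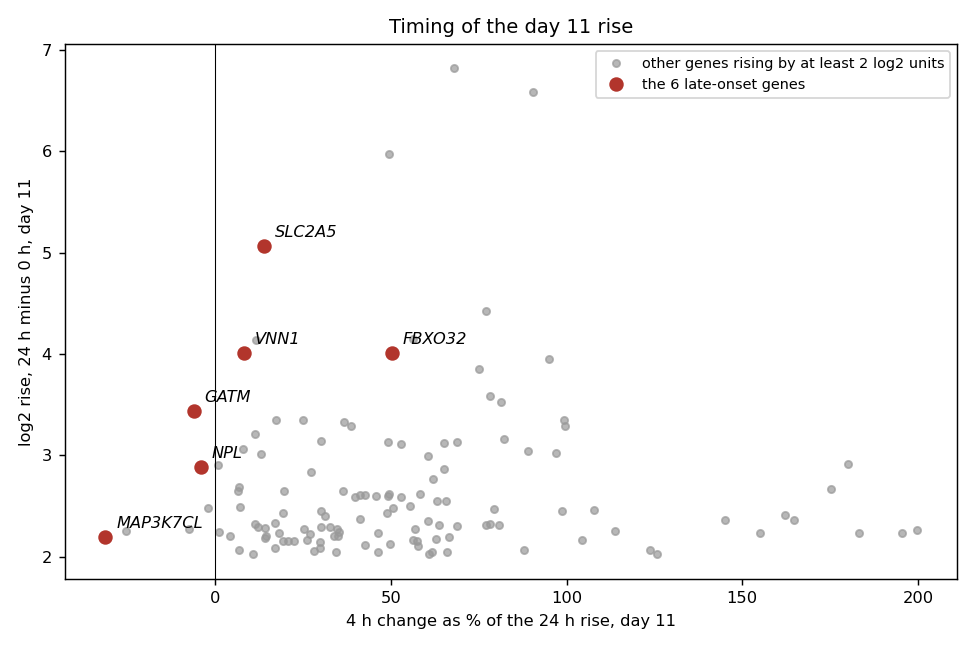
For the day 11 gland, the log2 rise at 24 h against the 4 h change as a percentage of that rise; grey points are the 121 other genes that rose by at least 2 log2 units, and red points the 6 genes described. SLC2A5, VNN1, GATM, NPL and MAP3K7CL lie between -31.3% and 13.8% and FBXO32 at 50.3%, close to the median of the other genes (49.1%).

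The probe sets of a gene did not always give the same size of change. Of the 3 SLC2A5 probe sets, the second rose by 2.28 ± 0.18 (SE) between 0 and 24 h on day 11. That is 4.86-fold, against 33.6-fold for the first. The third had a difference of 0.10 ± 0.11 (SE) with overlapping groups. The third stayed between 3.24 and 4.03 in the day 11 arrays, within the dim range. Both VNN1 probe sets rose, by 4.01 and 3.47, and both FBXO32 probe sets rose, by 4.01 and 4.08. GATM, NPL and MAP3K7CL rested on 1 probe set each.

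**Figure D3:**
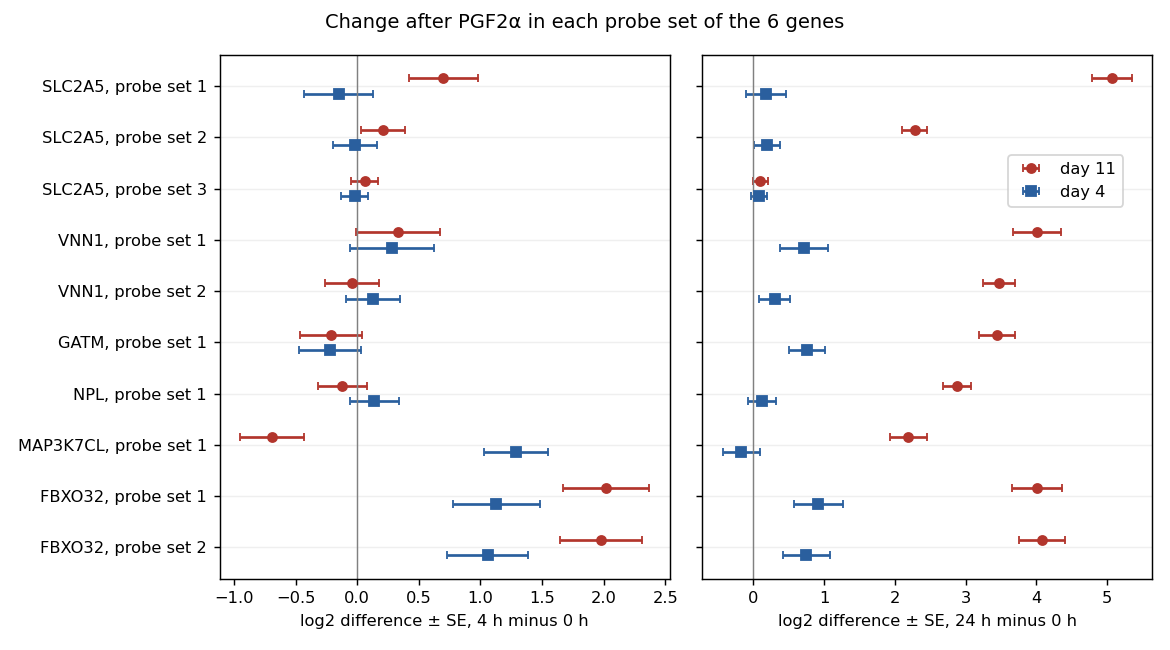
Log2 difference ± SE from the limma fit for each of the 10 probe sets, 4 h minus 0 h (left) and 24 h minus 0 h (right), on day 11 (red circles) and day 4 (blue squares). At 24 h, 9 of the 10 probe sets show day 11 differences of 2.19 to 5.07, the third SLC2A5 probe set lies near 0, and the day 4 differences lie between -0.17 and 0.92.

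The early gland was then examined for the same genes. On day 4 none of the 6 was called at 24 h against 0 h by limma, where 1240 of 24016 probe sets were (5.16%), and all 6 had overlapping groups, where 4.39% of probe sets had none. At an unadjusted p under 0.05 there were 3 of 6 in limma (17.5% of all probe sets) and 1 of 6, VNN1, in an exact two-sided permutation test (17.1%). That test's smallest possible p for 5 animals against 5 is 0.0079. The differences were 0.18 for SLC2A5, 0.72 for VNN1, 0.76 for GATM, 0.12 for NPL, -0.17 for MAP3K7CL and 0.92 for FBXO32.

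SLC2A5 and NPL stayed low in the day 4 gland. SLC2A5 was 3.45, 3.55, 3.74, 3.56 and 3.29 at 0 h, 3.43, 3.10, 3.50, 3.56 and 3.26 at 4 h, and 3.53, 3.83, 3.43, 4.05 and 3.67 at 24 h. NPL lay between 3.16 and 3.72 in all 15 day 4 arrays. These signals are in the dimmest 30%, where small changes could go unseen. The 95% interval of the 24 h change was -0.39 to 0.76 for SLC2A5 (adjusted p = 0.84 in limma) and -0.30 to 0.53 for NPL (adjusted p = 0.87 in limma). The day 11 differences of 5.07 and 2.88 had served to choose the genes, so the difference between the days was not tested.

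VNN1 was 4.34, 4.33, 3.90, 4.48 and 4.19 at 0 h on day 4, 4.66, 4.20, 5.42, 4.39 and 3.94 at 4 h, and 4.59, 5.43, 4.48, 5.85 and 4.47 at 24 h. At 24 h replicates 2 and 4 were clearly higher than the other three, which lay at or just above the top of the control range (4.47 to 4.59). The difference of 0.72 ± 0.34 (SE) did not pass (adjusted p = 0.26 in limma), with an exact permutation p of 0.016. Without day 4, 24 h replicate 1 it was 0.81 (adjusted p = 0.19 in limma), and without replicate 4 of that group 0.50 (adjusted p = 0.65 in limma). The second VNN1 probe set differed by 0.30 ± 0.22 (SE, adjusted p = 0.55 in limma), with an exact permutation p of 0.1.

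GATM was 5.89, 5.45, 5.55, 5.10 and 5.91 at 0 h on day 4, 5.34, 5.33, 5.42, 5.33 and 5.38 at 4 h, and 6.94, 6.22, 5.43, 6.92 and 6.21 at 24 h. At 24 h 4 of 5 animals were above all controls and 1 lay among them. Between 24 and 4 h the groups did not overlap, by a margin of 0.01, and GATM rose by 0.99 ± 0.25 (SE, adjusted p = 0.0069 in limma). Without day 4, 24 h replicate 1 that rise was 0.84 (adjusted p = 0.023 in limma). Against 0 h the difference of 0.76 ± 0.25 (SE) did not pass (adjusted p = 0.074 in limma), but it passed without day 4, 24 h replicate 3, at 0.99 (adjusted p = 0.019, range 0.019 to 0.27 over the alternatives in limma). Without replicate 1 of that group it was 0.61 (adjusted p = 0.15 in limma).

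MAP3K7CL had the opposite timing in the 2 glands. In the day 4 gland it was 3.88, 4.02, 3.88, 3.17 and 3.39 at 0 h, 4.92, 5.62, 5.04, 4.47 and 4.74 at 4 h, and 3.43, 3.64, 3.42, 3.92 and 3.06 at 24 h. The 4 h group stood above both others without overlap, and the 0 and 24 h groups overlapped, both with means in the dim range. It rose by 1.29 ± 0.26 (SE, adjusted p = 0.0028 in limma) at 4 h against 0 h and fell by 1.46 ± 0.26 on the log2 scale at 24 h against 4 h (SE, adjusted p = 0.00024 in limma). It was the only 1 of the 6 called at 4 h against 0 h, where 1018 of 24016 probe sets were called (4.24%). MAP3K7CL and GATM were the 2 of 6 called at 24 h against 4 h, where 14.9% of probe sets were called. Without day 4, 24 h replicate 1 the log2 difference of MAP3K7CL was -1.45 (adjusted p = 0.00055 in limma). At 4 h all 5 day 11 arrays were below all 5 day 4 arrays (3.78 against 4.96 on average), and at 24 h all 5 were above (6.66 against 3.49). The difference between the days in the 4 h response was not tested, since the day 11 values had served to choose the gene.

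FBXO32 was 5.53, 5.84, 5.18, 4.85 and 5.60 at 0 h on day 4, 7.33, 5.98, 7.05, 6.15 and 6.14 at 4 h, and 5.74, 6.64, 5.83, 7.81 and 5.60 at 24 h. All 4 h arrays were above all controls, with 2 of them more than 1 log2 unit above the highest control, and at 24 h 2 animals were above the controls and 3 within their range. FBXO32 and MAP3K7CL were the 2 of 6 genes with no overlap between 4 and 0 h on day 4, where 6.43% of probe sets had none. The 4 h difference of 1.13 ± 0.35 (SE) missed the threshold (adjusted p = 0.062, range 0.015 to 0.22 over the alternatives in limma), with an exact permutation p of 0.0079. It passed without day 4, 4 h replicate 2 (1.27, adjusted p = 0.047 in limma). The 24 h difference was 0.92 ± 0.35 (SE, adjusted p = 0.13 in limma). Without day 4, 24 h replicate 1 it was 1.07 (adjusted p = 0.066 in limma), and without replicate 4 of that group, the array at 7.81, it was 0.55 (adjusted p = 0.50 in limma).

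The glands also differed before treatment, which the rule did not ask about but which rests on the same day 11 controls. VNN1 was 6.73 ± 0.90 in day 11 controls and 4.25 ± 0.22 in day 4 controls (SD, n = 5 each), with no overlap and a difference of 2.48 ± 0.34 (SE). FBXO32 was 6.75 ± 0.72 in day 11 controls and 5.40 ± 0.39 in day 4 controls (SD, n = 5 each). MAP3K7CL was 4.47 ± 0.38 in day 11 controls and 3.67 ± 0.37 in day 4 controls (SD, n = 5 each). For each of these 2 genes 4 of 5 day 11 arrays were above all day 4 arrays. SLC2A5 and NPL differed by 0.11 ± 0.28 and 0.21 ± 0.20 (SE), day 11 minus day 4, with overlapping groups. GATM ran the other way, at 5.16 ± 0.25 on day 11 and 5.58 ± 0.34 on day 4 (SD, n = 5 each), with overlap. Thus 1 of 6 genes, VNN1, had no overlap between the days at 0 h, where 23.4% of all probe sets had none. At 24 h all 6 were higher on day 11 without overlap, by 2.25 to 5.77 log2 units, where 11.8% of probe sets were, a count that the choice of genes affects.

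Ordered by group mean, the day 11, 24 h group came first for all 6 genes. Below it, neighbours in the order overlapped for SLC2A5, VNN1, GATM, NPL and MAP3K7CL. FBXO32 had a second separate step, with the day 11, 4 h group below the 24 h group and above the day 11 controls, all without overlap. The second place, by representative probe set, went to the day 11, 4 h group for SLC2A5, VNN1 and FBXO32. It went to the day 11 controls for NPL. For GATM it went to the day 4, 24 h group and for MAP3K7CL to the day 4, 4 h group. In the second VNN1 probe set the day 11 controls came second instead (4.27 against 4.24 at 4 h). The profiles over the 6 group means, each centred on its own mean, were most alike for GATM and NPL (root mean square difference 0.46 log2 units) and for NPL and MAP3K7CL (0.49). VNN1 and GATM were least alike (1.58).

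The animals of the day 11, 24 h group did not rank the same for all genes. By the representative probe sets, replicate 1 had the highest signal of VNN1 (11.13), GATM (9.23), MAP3K7CL (7.67) and FBXO32 (11.15). In the second VNN1 probe set replicate 1 was instead the lowest, at 6.76, and replicate 3 the highest, at 8.36. Replicate 1 also had the lowest signal of STAR, at 10.71 against 12.33 to 12.82 in the other four. STAR is the protein that delivers cholesterol to the mitochondrial enzymes of steroidogenesis. Over all probe sets the array of replicate 1 lay farther from its own group (root mean square distance 0.34) than the others did (0.25 to 0.28). Its array weight in limma was also the lowest of the group, at 0.58. Whether the animal or the array differed was not tested. For SLC2A5 replicate 4 was highest (9.58) and replicate 3 lowest (7.62). MAP3K7CL was lowest in replicate 4 (5.72), and NPL was nearly even (6.12 to 6.76).

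The mean of 10 macrophage markers was also read in each animal, and its relation to the genes was not tested. In the day 11, 24 h group it was highest in replicate 4 (10.37), where SLC2A5 was highest and MAP3K7CL lowest. It was lowest in replicates 1 and 3 (9.67). Replicate 1 was the animal with the highest GATM, MAP3K7CL and FBXO32, and with the highest VNN1 by the first VNN1 probe set but the lowest by the second.

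The other groups after PGF2α were added after their values were seen, and they are described for all 6 genes. At 4 h on day 11 the macrophage mean was highest in replicate 4 (9.77), as were SLC2A5 (5.32) and NPL (4.19), but GATM was lowest there (4.20). It was lowest in replicate 5 (8.06), where VNN1 (7.51) and GATM (5.70) were highest. The second VNN1 probe set was highest in replicate 3 (4.55). MAP3K7CL was highest in replicate 3 and FBXO32 in replicate 2.

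At 24 h on day 4 the macrophage mean was highest in replicate 4 (8.12), as were SLC2A5 (4.05), VNN1 (5.85), MAP3K7CL (3.92) and FBXO32 (7.81). NPL was lowest in that animal (3.48), and GATM was highest in replicate 1 (6.94), where the macrophage mean was lowest (6.77). At 4 h on day 4 the macrophage mean (8.27), NPL (3.64) and FBXO32 (7.33) were highest in replicate 1. SLC2A5 was highest in replicate 4, VNN1 and GATM in replicate 3, and MAP3K7CL in replicate 2. On day 4 NPL spanned only 3.48 to 3.69 at 24 h and 3.52 to 3.64 at 4 h, in the dim range. GATM spanned only 5.33 to 5.42 at 4 h on day 4. Nothing is read from the order within such narrow ranges. These orders are descriptions over 5 animals and, unless stated, use the representative probe set of each gene.

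**Figure D4:**
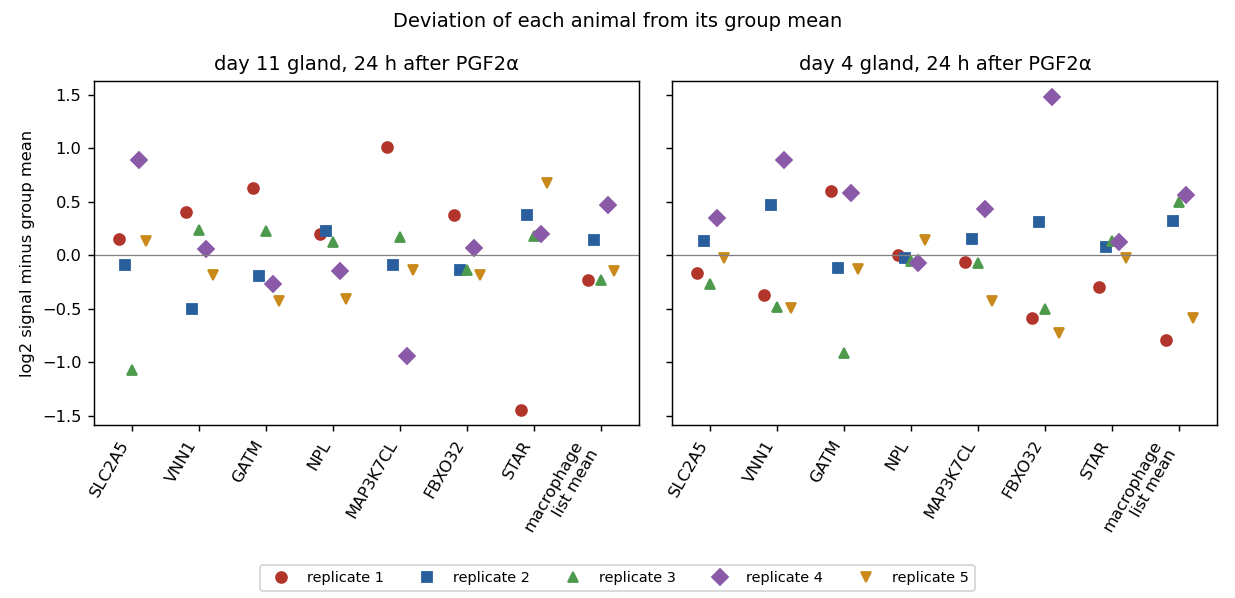
Log2 signal of each animal minus its group mean for the 6 genes, STAR and the mean of 10 macrophage markers, in the day 11, 24 h group (left) and the day 4, 24 h group (right); each symbol is 1 animal, and replicate numbers of the 2 groups are different animals. Each gene is shown by its representative probe set. Replicate 1 of the day 11 group is highest for VNN1, GATM, MAP3K7CL and FBXO32 and lowest for STAR, but it is lowest in the second VNN1 probe set, which is not shown. That array also lay farthest from its own group over all probe sets (root mean square distance 0.34). Replicate 4 of the day 4 group is highest for FBXO32 and VNN1.

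Markers of other cell types moved in the same samples. Between 24 and 0 h on day 11, 7 of 10 measured macrophage markers rose (median difference 1.77), where 14.3% of all probe sets rose and the median over all was -0.01. The mean of the list was 9.67 to 10.37 at 24 h and 7.85 to 8.55 at 0 h, and no marker was in the dimmest 30%. Of 7 T and NK cell markers 6 rose, of 6 neutrophil markers 3, of 8 fibroblast and pericyte markers 2, of 3 fat cell markers 1 and of 5 smooth muscle markers 1. None of 2 B cell and 4 red blood cell markers was called in limma (1 and 0 at an unadjusted p under 0.05). The smooth muscle call was lost without control replicate 1 or 2 or 24 h replicate 1 or 3, and 1 B cell marker was called without 24 h replicate 1. Of 8 endothelial markers 3 fell. Between 24 and 4 h on day 11, 6 of 8 fibroblast and pericyte markers rose, where 12.5% of all probe sets did. Of 8 luteal steroidogenic markers 7 fell, where 15.4% of probe sets fell, and their mean was 10.90 to 11.57 at 24 h and 12.42 to 12.61 at 0 h. On day 4 none of the 10 macrophage markers was called at 24 h against 0 h in limma (3 at an unadjusted p under 0.05, median difference 0.57), with list means of 6.77 to 8.12 at 24 h and 6.92 to 7.13 at 0 h. Leaving out day 4, 24 h replicate 1 gave 2 of the 10 called higher. The part of these cells in the rise of the 6 genes was not tested.

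The genes whose profile over the 6 group means was most like each member were found among 9149 others, and since the members were chosen for their profile this is a description. The closest of these matches was HMOX1, the heme-degrading enzyme, to NPL (root mean square difference 0.11). HMOX1 was 9.06, 9.09 and 11.96 at 0, 4 and 24 h on day 11 and 8.87, 9.30 and 8.97 on day 4. SFRP4, a secreted Wnt antagonist, and MSR1, a scavenger receptor of macrophages, followed (0.20 and 0.21). HMOX1, SFRP4 and MSR1 were also the 3 nearest to MAP3K7CL, at 0.41 to 0.42.

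Nearest to SLC2A5 was FABP4, a fatty acid carrier of fat cells and macrophages (0.40), with 4.64, 5.12 and 8.78 at 0, 4 and 24 h on day 11 and 4.15, 4.57 and 3.91 on day 4. RNF39, a RING finger gene, and DEPP1 came next at 0.75. For VNN1 the nearest were GPNMB, a glycoprotein of macrophages and pigment cells (0.59), CD36, a fatty acid and lipoprotein receptor (0.64), and FABP4 (0.88). For GATM they were HNMT, which inactivates histamine (0.43), RNF39 (0.47) and HMOX1 (0.51). For FBXO32 they were CD36 (0.62), TCIM (0.64) and ATF3, a stress-induced transcription factor (0.71). MSR1 is also 1 of the 10 macrophage markers, and FABP4 1 of 3 measured fat cell markers, of which it was the 1 called higher by 24 h on day 11.

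Other genes of each pathway did not follow the members as a block. They were tested on both days in the limma fit, and rose or fell here means an adjusted p under 0.05. Counts at 24 h against 0 h on day 11 stand beside 14.3% of all probe sets that rose and 15.4% that fell. The 3 largest changes per list were named by rule, and the other genes were picked after their values were seen. Among hexose transporters and fructose enzymes, 4 of 14 measured genes rose and 6 fell by 24 h on day 11, with a median of -0.22. KHK, the kinase that commits fructose to breakdown, fell to 6.93 ± 0.22 at 24 h, against 8.04 ± 0.27 in controls (SD, n = 5 each; adjusted p = 2.1e-05 in limma), and TKFC, a later enzyme of that route, fell by 0.48. The aldolase ALDOC fell by 1.36, and the transporter SLC2A6 by 1.18. HK3, a hexokinase of myeloid cells, rose by 2.29 ± 0.27 (SE), and AKR1B1, an aldose reductase, by 0.93. SLC2A1, the widespread glucose transporter GLUT1, rose by 1.27 at 4 h (18.4% of probe sets were called at 4 h on day 11) and was 0.39 above controls at 24 h. On day 4 KHK and ALDOC moved the other way at 24 h, rising by 0.75 and 0.71, the 2 of 14 called there. Neither was called without day 4, 24 h replicate 2 or replicate 4 (adjusted p of 0.055 to 0.16 in limma). ALDOC was also not called without day 4 control replicate 1, 2 or 3 (adjusted p of 0.056 to 0.082 in limma). On day 11 the count of rising genes was 2 in place of 4 without control replicate 1 or 2 or 24 h replicate 1 or 5.

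In the pantetheine, coenzyme A and taurine list 1 of 9 genes rose and 4 fell by 24 h on day 11. VNN2, a relative of VNN1, was the 1 that rose. It was 7.45 ± 0.51 at 4 h and 6.70 ± 0.48 at 24 h, against 5.22 ± 0.34 at 0 h (SD, n = 5 each), so that its mean was highest at 4 h, when VNN1 lay within its control range. CDO1, which oxidizes cysteine on the way to taurine, fell by 2.42 ± 0.19 on the log2 scale (SE). PANK3, a kinase of the first step from pantothenate to coenzyme A, fell by 0.86, and SLC5A6, which takes up pantothenate, by 0.87. SLC6A6, the taurine transporter, was the 1 of 9 called on day 4 at 24 h, with a rise of 0.80, and it was not called without day 4, 24 h replicate 2 (0.66, adjusted p = 0.054 in limma).

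Of 17 creatine and arginine genes 4 rose and 5 fell by 24 h on day 11 (14.3% and 15.4% of all probe sets). GAMT, the methyltransferase of the second and last step of creatine synthesis, fell by 0.72 ± 0.16 (SE) while GATM was 3.44 higher. The creatine kinases CKB and CKM rose by 1.47 and 1.33. CKB rose on day 4 as well, by 1.02, and CKM rose at 4 h on both days, by 1.70 on day 11 and 1.19 on day 4. The day 4 call of CKM was lost without control replicate 2 or 5 or 4 h replicate 1, 3 or 5 (adjusted p of 0.053 to 0.086 in limma). ASS1, which makes the precursor of arginine, fell by 1.04, and NOS2, a nitric oxide synthase that consumes arginine, by 0.83. Other arginine genes of the list, ASL and OAT, rose by 0.72 and 0.61 (adjusted p = 9.6e-07 and 3.9e-06 in limma). NOS3, the endothelial synthase, was 6.76, 7.89 and 6.64 at 0, 4 and 24 h on day 11. It rose by 1.13 at 4 h (adjusted p = 0.0017 in limma), differed by -1.25 ± 0.25 (SE) between 24 and 4 h (adjusted p = 0.00037) and was not called at 24 h against 0 h (-0.12, adjusted p = 0.78).

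Sialic acid and amino sugar genes had 6 of 15 higher and 2 lower by 24 h on day 11, with a median of 0.21. RENBP, which interconverts the amino sugar released by NPL, rose to 8.60 ± 0.23, against 6.58 ± 0.36 in controls (SD, n = 5 each), a difference of 2.02 ± 0.15 (SE, adjusted p = 4e-11 in limma). SLC17A5, which exports sialic acid from lysosomes, rose by 1.33, NEU1, the lysosomal sialidase, by 0.53, and CTSA, which protects NEU1, by 0.67. NAGK, a kinase of amino sugars, rose by 0.57 at 24 h after a fall of 0.51 at 4 h (the difference was -0.51). GNPNAT1, an acetyltransferase of amino sugar synthesis, was 7.57 at 24 h against 8.81 at 4 h, a difference of -1.24 ± 0.14 (SE, adjusted p = 7.3e-08 in limma). None of the 15 was called on day 4 at 24 h against 0 h in limma, where 6 had an unadjusted p under 0.05. When day 4, 24 h replicate 1 was left out, 2 of them rose and 2 fell, and without day 4 control replicate 5, 1 rose and 1 fell.

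In the TAK1 signalling list 3 of 12 genes rose and 1 fell by 24 h on day 11, and without 24 h replicate 2, 5 rose. Without control replicate 1, 2 fell. IKBKB and CHUK, kinases that release NF-kB, rose by 0.61 and 0.37, the p38 kinase MAPK14 rose by 0.56, and its activator MAP2K6 fell by 1.22. MAP2K3, another p38 activator, rose by 0.87 at 4 h on day 11 and by 0.50 at 4 h on day 4. Between 4 and 24 h it fell by 0.61 on day 11, where MAP3K7CL was 2.88 higher, and fell by 0.88 on day 4, where MAP3K7CL fell by 1.46.

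The ubiquitin ligase, FOXO and atrophy list had the highest share of rising genes of the 6 lists by 24 h on day 11, with 9 of 15 higher (14.3% of all probe sets) and 3 lower (15.4%) and a median of 0.44, against -0.01 over all. The autophagy genes GABARAPL1, SQSTM1 and MAP1LC3B rose by 1.22, 1.13 and 0.44, and BNIP3, a mitophagy receptor, by 1.19. PDK4, which restrains glucose oxidation, rose by 1.29, the lysosomal protease CTSL by 1.21 and the proteasome subunit PSMD11 by 0.49. GABARAPL1 was 1.06 higher at 4 h already, as FBXO32 was by 2.02, and it rose by 0.71 at 4 h on day 4. DDIT4, an inhibitor of mTOR, fell by 1.98, and EIF4EBP1, a brake on translation, fell by 1.71. The ubiquitin ligase genes measured in the list did not rise. CUL1 was not called (-0.08, adjusted p = 0.65 in limma), and FBXW7 fell (difference -0.65, adjusted p = 0.0021 in limma). FOXO4, a forkhead factor, rose by 0.44 at 24 h on day 11. The count of 9 higher and 3 lower was the same without each array in turn. The muscle ligase TRIM63 was not analysed here.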

How the data were processed

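The authors deposited RMA log2 values for each probe set of the 30 arrays, per the submitters' processing notes. The RMA version, and whether the 30 arrays were normalized together, are not given in the sources used here. RMA puts array distributions on 1 scale, and array medians were 6.01 to 6.16. Groups were read from the sample titles. The study's factorial design was fitted in limma 3.58.1 (R 4.3.3) as 6 group means over all 30 arrays, 24016 probe sets without the 112 controls, with contrasts, empirical Bayes moderation and Benjamini-Hochberg adjustment over all probe sets (threshold 0.05). No filter on dim signals was applied. Of the probe sets, 13292 have 1 symbol in the platform annotation, 86 have several and 10638 have none. Of their Entrez IDs, 13263 were found in the RefSeq gene table and no symbol changed. The members and the lists of pathway and marker genes were chosen with earlier results of these data known. Replicates are separate animals, so p-values measure the spread between animals.

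Named were the 6 members with all probe sets, the 3 genes nearest to each in group means, the 3 largest changes called within a day per pathway list, STAR and the macrophage list. Alternatives were quantile normalization, median subtraction, a filter on the dimmest 30%, array weights, robust moderation with a variance trend, a replicate block, a fit to the 2 groups alone, the mean of a gene's probe sets, an exact permutation test and leaving out each replicate. Leaving out replicates for the list counts was added after seeing the data. The fit was tested on simulated data. Deviations of same-numbered animals correlated by 0.146 to 0.214 between the 4 h and 0 h groups of day 4, above 0.1 in every pair, and by less in at least 1 pair of every other contrast within a day. The labels do not say that a number marks a shared animal or batch, and each number is a different heifer. Sequences and motifs were not analysed here.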

Additional observations from a re-analysis of the deposited data

Results flagged for a closer look

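In the second VNN1 probe set, replicate 2 of the day 11 controls lay at 3.56, below the other four controls at 4.37 to 4.54, with a gap wide for a group of 5. It was the 1 such group of 60 examined, and about 1 in 20 groups has such a gap by chance. The first VNN1 probe set was also lowest in that animal, at 5.66, against 6.53 to 8.16 in the other four.

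MAP3K7CL changed in opposite directions at 4 h in the 2 glands. The 4 h minus 0 h difference was -0.69 on day 11 and 1.29 on day 4. All 5 arrays at 4 h were below the mean of the controls on day 11, and all 5 were above it on day 4. The difference between the days was not tested.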

How the results depend on the processing

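Of 330 alternative tests of the 6 genes on day 4, 322 kept the direction and the side of the threshold, and of 432 alternative values of the untested day 11 contrasts none moved by more than the spread between replicates. No called value changed sign. The exceptions touch 3 genes, and their cause was not tested. FBXO32 at 4 h against 0 h on day 4 (1.13, adjusted p = 0.062 in limma) passed without the dimmest 30% of probe sets (1.13, adjusted p = 0.05 in limma as rounded, on fewer tests), with array weights (1.11, adjusted p = 0.015), in the fit to both groups alone (1.13, adjusted p = 0.036) and in the exact permutation test (1.13, p = 0.0079). Leaving out single replicates gave 0.93 to 1.27. VNN1 at 24 h against 0 h on day 4 passed in the exact permutation test (0.72, p = 0.016), but its second probe set did not (0.30, p = 0.1). In the same contrast GATM passed with array weights (0.68, adjusted p = 0.043 in limma). GATM ranged over 0.61 to 0.99 when replicates were left out. Counts of called probe sets depended more on the setting. At 4 h against 0 h on day 4 the count of 1018 became 1981 with array weights, and 608 to 1061 when replicates were left out, lowest without 4 h replicate 1. At 24 h against 0 h the count of 1240 became 2356 with array weights, 147 in the fit to both groups alone and 357 to 2071 when replicates were left out. It was 357, 497, 720 and 734 without 24 h replicate 4, 24 h replicate 2, 0 h replicate 3 and 0 h replicate 4, and 2071 without 24 h replicate 1. At 24 h against 4 h the count was 3580, and 2598 to 4965 over all alternatives. With the replicate number as a block, 1123 probe sets were called at 4 h against 0 h on day 4, MAP3K7CL had an adjusted p of 0.0027 and FBXO32 0.078 in limma, and the block changed no call of the 6 genes. NPL has no value without the dimmest 30% of probe sets. SLC2A5 and MAP3K7CL passed that filter only through their day 11, 24 h signals (means of 8.69 and 6.66). Their filtered day 4 values are counted among the 330 but are no independent check. Mean signals below 4.50 limit SLC2A5 and NPL in every group but day 11, 24 h. They limit MAP3K7CL in every group but day 11, 24 h and day 4, 4 h. The representative VNN1 probe set was below 4.50 only in the day 4 controls.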
